A study of Mus musculus with 2 samples.

Results

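The contractile genes of myoepithelial cells were examined in epithelial cells sorted from the submandibular glands of young and aged mice. The 10 genes, chosen by name, were Acta2, Actg2, Myh11, Myl9, Mylk, Cnn1, Tagln, Tpm2, Lmod1 and Oxtr, out of 37003 gene names on the array and 21346 with a probe well above background on at least 1 array. All their 23 probes were taken, each described separately. The young sample came from mice of 9 weeks and the aged sample from mice of 24 months. Both were female C57BL/6 mice (C57BL/6N in the methods) with no stated allele or treatment, and cells of both ages were positively selected with EpCAM magnetic beads. The methods name a commercial supplier for young mice and another source for aged ones, so that age and source cannot be told apart. Each age had 1 array, hence no replicate check, no test and no p-value, and no label gives the number of mice behind an array.

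Myoepithelial cells are epithelial cells that lie between the secretory cells of a gland and its basement membrane, and they shorten to help expel saliva. They keep the keratins of basal epithelium and also carry the contractile apparatus of smooth muscle. In this apparatus, a rise in calcium activates myosin light chain kinase, which phosphorylates the regulatory light chain so that smooth muscle myosin pulls on actin filaments. Tropomyosin, calponin and transgelin lie on those filaments, and transcription of many of the genes is driven by serum response factor bound to a sequence called the CArG box. Vascular smooth muscle cells and pericytes carry the same apparatus, and in RNA of a mixed population fewer cells of a type and less RNA per cell cannot be told apart.

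The probes are oligonucleotides of 60 bases. Those on which the results turn are printed because probes of Acta2 differed from each other and probes of other members stood at or beyond 2-fold. For the Acta2 probes A_52_P420504 and A_52_P210078 and those of Myl9 and Cnn1, only the first 30 bases are shown. They are in lower case throughout and are named by gene and probe.
Acta2 probe A_51_P450957: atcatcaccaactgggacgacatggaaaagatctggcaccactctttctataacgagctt
Acta2 probe A_52_P420504: gttttgtggatcagcgcctccagttccttt
Acta2 probe A_52_P210078: acactgacttcacagctagagtgactattt
Myh11 probe A_55_P1988531: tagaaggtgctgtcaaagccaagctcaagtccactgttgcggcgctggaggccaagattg
Myh11 probe A_51_P362429: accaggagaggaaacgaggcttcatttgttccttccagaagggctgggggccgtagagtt
Myl9 probe A_51_P308298: cttaggcttgtggagttgtctcagcacccc
Tpm2 probe A_55_P2121408: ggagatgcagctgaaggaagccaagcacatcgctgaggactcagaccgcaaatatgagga
Cnn1 probe A_51_P350817: acacacgcattttggttttgcagtgactgg

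The first Acta2 probe and the Actg2 probe were taken to read actin coding sequence, which is much alike among the actin genes. This placement is background knowledge, and no file used here gives it. The Acta2 probes at bases 1278 and 1641 lie further 3′ in the same transcript. None of the 23 probes shared a run of 20 bases with another probe on the array. Coordinates in the files are those of mm9. The first Acta2 probe spans an intron on the minus strand, from chr19:34322995-34326249, and the second lies at chr19:34316060-34316119. The third is at chr19:34315697-34315756. The Myl9 probe lies at chr2:156607301-156607360, the Tpm2 probe at chr4:43532262-43532321 and the Cnn1 probe at chr9:21913058-21913117. The Myh11 probes lie at chr16:14202190-14202249 and, across an intron, chr16:14195223-14198147.

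By the brightest probe of each gene, Cnn1, Myl9, Myh11 and Tpm2, 4 of the 10 genes, were at least 2-fold lower in the aged sample, and a second Acta2 probe was lower as well. None was 2-fold higher. Tagln, Actg2, Oxtr and the brightest probe of Acta2 differed by less than 0.35 on the log2 scale, Mylk lay just short of 2-fold, and Lmod1 was not measured. Among all 18745 genes measured on both arrays, 3.05% were at least 2-fold lower and 1.52% at least 2-fold higher. The median difference of the 9 measured members was -0.97, against 0.09 for all those genes. Values were also computed under 6 other scalings, which were median centring, the percentile over probes measured on both arrays, quantile normalization, loess, levelling on spike-in controls and the normexp background correction. All differences are log2 of the signal over the 75th percentile of its array, aged minus young, and a gene is represented by its brightest probe. Errors are those that the scanner software gives a spot, combined over both arrays, and do not cover variation between mice. They ranged from 0.20 to 0.33 for the 13 member probes well above background on both arrays.

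**Figure D1:**
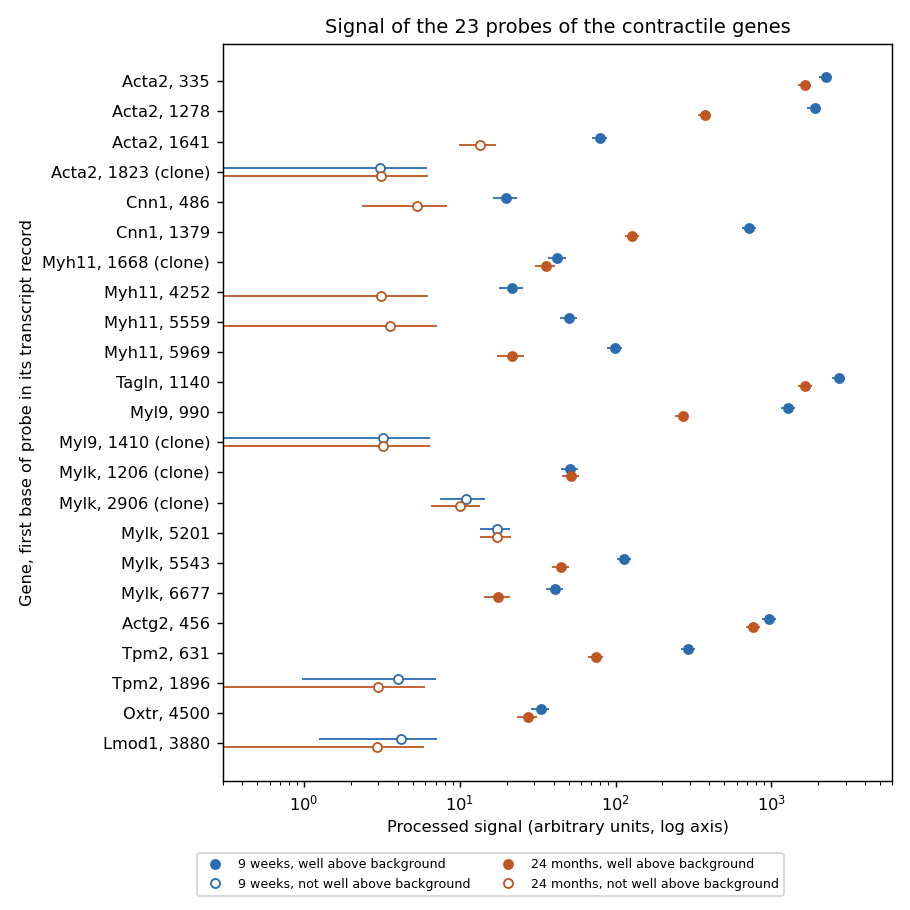
Processed signal of each of the 23 probes (arbitrary units, log axis) on the young (9 weeks, blue) and aged (24 months, orange) array, with the software's error as bars and open symbols for spots not well above background. The signals precede scaling, and the probe of Lmod1 and 5 others were not well above background at either age.

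Smooth muscle actin was measured by 4 probes of Acta2. The probe starting at base 335 of the transcript gave a signal of 2246 ± 225 (software error) at 9 weeks and 1642 ± 164 at 24 months. After scaling, its difference was -0.08 ± 0.20, within the error. The probe at base 1278 gave 1895 ± 190 at 9 weeks and only 375 ± 37.6 at 24 months, a difference of -1.96 ± 0.20 or 3.90-fold lower. The probe at base 1641 gave 79.6 ± 8.64 at 9 weeks and 13.5 ± 3.66, not well above background, at 24 months. It was therefore at least 4.31-fold lower, although its limit came to -0.61 on the log2 scale, short of 2-fold, under normexp. Both 3′ probes of Acta2 were thus low on the aged array and the 5′ probe was level. The fourth probe, drawn from a cDNA clone, was not well above background at either age.

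Actg2, the actin of enteric smooth muscle, had 1 probe. Its signal was 973 ± 97.3 at 9 weeks and 765 ± 76.5 at 24 months, a difference of 0.02 ± 0.20. Under the main scaling, neither this probe nor the Acta2 probe at base 335 thus differed by more than its error. The Acta2 probe came to -0.35 under loess, -0.34 on spike-in controls and -0.27 under quantile normalization. The Actg2 probe came to -0.23 on spike-in controls. Whether transcripts of other actin genes add to these signals was not tested. The cytoplasmic actins, Actb and Actg1, differed by 0.03 and 0.05, although each was lower on the aged array under some scalings, down to -0.60 and -0.51.

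The position of the probe could matter if RNA of one sample were more degraded. For 2580 RefSeq transcripts with probes on both arrays at least 500 bases apart, the difference of the probe nearest the 3′ end minus that nearest the 5′ end had a median of -0.05, with 5% of transcripts below -0.78 and 5% above 0.45. For Acta2 this value was -1.88, and 8 transcripts, or 0.310%, were as low, Acta2 included. In Mylk it was 0.13. The opposed Acta2 probes were noticed before this comparison was made. The cause of their disagreement was not tested.

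**Figure D2:**
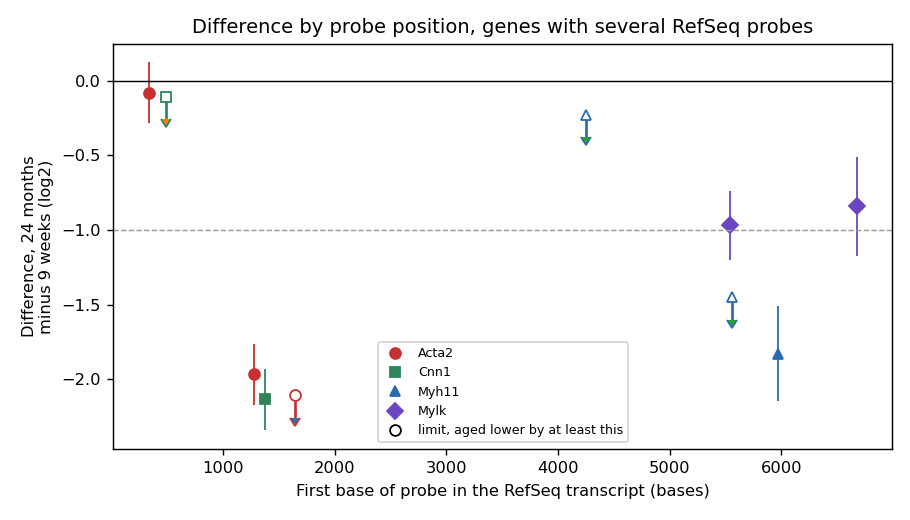
Difference between the arrays (log2, aged minus young) against the first base of the probe in the RefSeq transcript, for the 4 genes with several RefSeq probes above background. Bars are the software's error and open symbols with arrows are limits. The Acta2 probe at base 335 lies at -0.08, and those at 1278 and 1641 lie at -1.96 and at or below -2.11.

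Myosin was represented by its smooth muscle heavy chain, its regulatory light chain and the kinase of that light chain. Myh11, the heavy chain, gave 99.1 ± 10.5 at 9 weeks and 21.6 ± 4.19 at 24 months at its probe nearest the 3′ end. The difference was -1.83 ± 0.32, or 3.55-fold lower, and came to -0.49, short of 2-fold, under normexp. The Myh11 probe at base 5559 gave 50.4 ± 6.16 on the young array, and at 24 months the software wrote a substitute value for an unmeasured spot, as it did for the next probe. Its limit was at least 2.73-fold lower, and came to -0.26 on the log2 scale under normexp. A further Myh11 probe, at base 4252, was well above background on the young array only, with 21.6 ± 3.76, and its limit of at least 1.17-fold lower does not place it. A probe from a cDNA clone named Myh11 gave 42.2 ± 5.58 and 35.5 ± 5.09, a difference of 0.12 ± 0.28. The RefSeq probe measured on both arrays was thus lower, and the clone probe was level. The probes at bases 5559 and 4252, above background on the young array only, could not have come out higher.

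Myl9, the regulatory light chain that the kinase phosphorylates, gave 1288 ± 129 at 9 weeks and 269 ± 27.1 at 24 months. Its difference of -1.89 ± 0.20, or 3.7-fold lower, came from a bright probe on both arrays. Under all 6 other scalings it lay between -2.14 and -1.71. A second probe named Myl9, from an expressed sequence tag, was not well above background at either age. The non-muscle light chains Myl6, Myl12a and Myl12b differed by 0.29, 0.16 and 0.21, none of them 2-fold, and each turned below 0 under at least 1 scaling.

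Mylk, the light chain kinase, had 5 probes. The probe at base 5543 gave 113 ± 11.7 at 9 weeks and 44.8 ± 5.39 at 24 months, a difference of -0.97 ± 0.23, which is 1.96-fold and just short of the threshold. It passed 2-fold at -1.08 with the percentile over measured probes and at -1.23 on spike-in controls, and came to -0.49 under normexp. The probe at base 6677 gave 41.0 ± 5.03 and 17.7 ± 3.42, a difference of -0.84 ± 0.33. Both of these RefSeq probes were thus lower on the aged array, the second coming to -0.11 under normexp. A clone probe gave 50.8 ± 6.30 and 51.7 ± 6.33, and its difference was 0.40 ± 0.25 in the other direction. The remaining 2, of which the one at base 5201 is also from RefSeq, were not well above background at either age.

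The proteins that lie along actin filaments differed among themselves. Cnn1, calponin, which binds actin and restrains myosin, gave 724 ± 72.5 at 9 weeks and 127 ± 13.1 at 24 months. The difference of -2.14 ± 0.21, or 4.39-fold lower, was the largest measured on both arrays among the member probes. The second Cnn1 probe, at base 486, gave 19.9 ± 3.50 on the young array only and a limit of at least 1.08-fold. Tpm2, beta-tropomyosin, gave 292 ± 29.4 and 75.2 ± 8.18, a difference of -1.59 ± 0.21 or 3.01-fold lower. Its second probe was not well above background at either age.

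Tagln, transgelin, an actin-binding protein of smooth muscle, gave 2708 ± 271 at 9 weeks and 1655 ± 166 at 24 months. The difference was -0.34 ± 0.20, or 1.26-fold. It was lower on the aged array under every scaling run, from -0.62 to -0.16, and never 2-fold. Calponin and tropomyosin were thus low on the aged array where transgelin was nearly level. Lmod1, leiomodin, which starts actin filaments in smooth muscle, had 1 probe, not well above background at either age, and no fold was given.

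Oxtr, the oxytocin receptor, which couples to calcium release and contraction in myoepithelial cells, was dim. Its signal was 33.1 ± 4.54 at 9 weeks and 27.3 ± 4.15 at 24 months, a difference of 0.10 ± 0.30. The direction turned under 2 of 6 other scalings, with values from -0.16 to 0.27. The receptor was thus measured and level within its error.

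**Figure D3:**
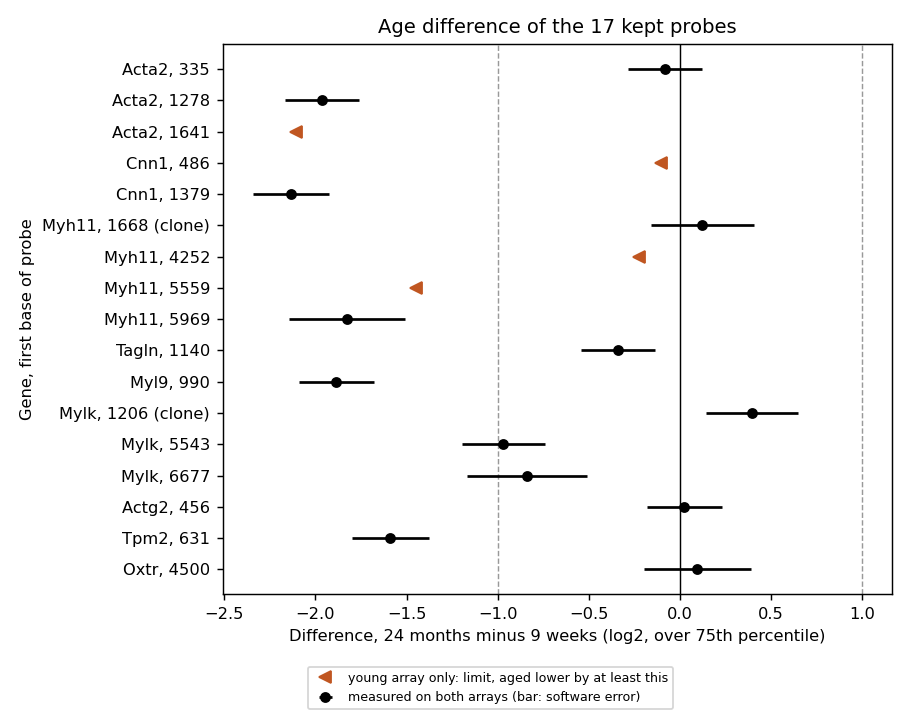
Difference between the arrays (log2, aged minus young, over the 75th percentile) of the 17 probes kept, with the software's error as bars and orange triangles for limits where only the young array was well above background. Dashed lines mark 2-fold. Probes of Cnn1, Acta2, Myl9, Myh11 and Tpm2 lie beyond it on the lower side, and none lies beyond it on the upper side.

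Over probes, 5 of the 13 measured on both arrays were at least 2-fold lower, against 2.8% of all 26745 such probes. Of the 11 that come from a RefSeq transcript, 9 lay below 0, the Acta2 probe at base 335 by less than its error. Both clone probes lay above 0. The share of all RefSeq probes below 0 was not computed, so that this count is a description only. The 4 member probes well above background only on the young array had to come out lower, and 2 of them were at least 2-fold lower by their limit, against 21.1% of all probes in that state. When 1 kept probe at 2-fold sufficed for a gene, 5 of the 9 members were lower, including Acta2, against 6.36% of all genes with a kept probe. These shares describe 2 arrays, and genes with more probes have more chances to be counted.

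**Figure D4:**
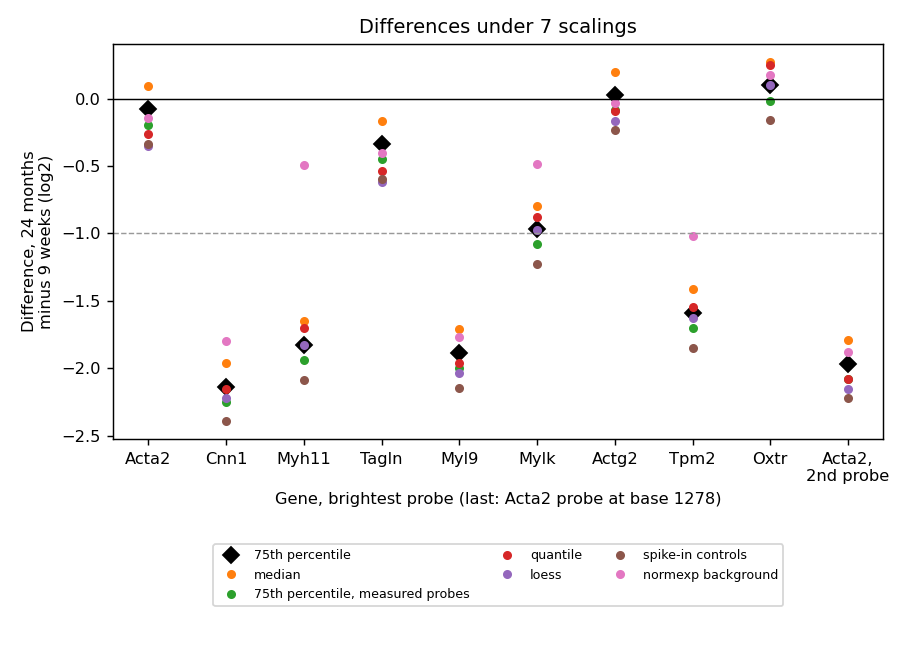
Difference (log2, aged minus young) of the brightest probe of each measured member and of the second Acta2 probe under the 75th percentile (black diamonds) and 6 other scalings (coloured points). Cnn1, Myl9, Tpm2 and the second Acta2 probe stay at or beyond 2-fold in all, and Myh11 moves to -0.49 under the normexp background correction.

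Genes outside the 10 were taken from lists of the same machinery. Of 20 further genes of smooth muscle and its filaments, 13 were measured on both arrays and had a median of -0.09, which lay between -0.35 and 0.08 under the other scalings. Of the 13, 2 were at least 2-fold lower, against 3.05% of all genes measured on both arrays. They were Cnn2, a calponin of wide expression, at -1.31, and Flna, the actin crosslinker filamin A, at -1.08. Flna's probes disagreed, the other standing at 0.44. By their limit, Lmod3, a leiomodin, was at least 2.33-fold lower and Itga8, an integrin chain, at least 2.08-fold lower. Cald1, caldesmon, at 0.01, and Tpm1, at -0.07, were level, although both are filament proteins like calponin and tropomyosin. Cnn2 came to -0.64 under normexp, and Flna to -0.91 at the least under the scalings run.

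Of 8 genes of transcription control, 7 were measured on both arrays with a median of -0.34. Srf, serum response factor, differed by -0.34 and its cofactor Mrtfa by -0.07. Mef2c, a factor of muscle genes, was lower by 1.60 on the log2 scale, from -0.81 to -2.40 over the 75th percentile, and came to -0.84 under normexp. Myocd, myocardin, the cofactor of smooth muscle, was not well above background at either age. None of the 12 measured non-muscle counterparts reached 2-fold, and their median of 0.04 turned to -0.32 at the lowest under other scalings.

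The promoter table of RefSeq (GRCm38.p6) held 7 of the 10 members, namely Acta2, Cnn1, Myl9, Mylk, Tpm2, Lmod1 and Oxtr. The CArG box in its strict form, a palindrome so that both strands are searched at once, was found in the 250 bases before the start of 1 of the 7, Myl9. It was found in 1.47% of all 32851 promoters in the table. Forms of the box with a changed base, and sites outside those 250 bases, were not searched for. A gene without a match may therefore still hold a CArG box. The Myl9 stretch is shown because it held the only match among the 7. The motif, in capitals, begins 161 bases before the start, and the stretch lies at chr2:156775278-156775337 on the plus strand.
Myl9 promoter: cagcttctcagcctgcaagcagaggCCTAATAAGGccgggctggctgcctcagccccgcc
The match is a description of letters, and no binding was measured.

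Among the basal keratins, by which myoepithelial cells are also known, Krt5, Krt14 and Krt17 were not lower on the aged array under the main scaling, whereas Krt15 stood at -0.81. All 16 genes of basal and myoepithelial identity were measured on both arrays, with a median of -0.12, and 1 was at least 2-fold lower, the laminin chain Lama3 at -1.28, which came to -0.27 under normexp. Krt5 differed by 0.03, Krt14 by 0.25, Sox10, a factor of acinar and myoepithelial cells, by -0.03, and Trp63, the p63 factor of basal cells, by 0.29, each with its sign turned under at least 1 scaling. Krt17 was higher by 0.81, and higher under every scaling run. The EpCAM gene itself differed by 0.20 and the epithelial list by a median of 0.07, so that the label of the sorted cells and their basal markers were present on both arrays.

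Markers of vascular smooth muscle and pericytes, which carry the same contractile transcripts, were measured on both arrays for 6 of 10 genes. None was at least 2-fold lower or higher, their median was 0.25, and their summed level, in multiples of the 75th percentile, was 55.6 at 9 weeks and 60.9 at 24 months. Most of that sum is Mcam, which is not limited to these cells. Rgs5, which marks pericytes, was dim on both arrays and differed by -0.13. Pdgfrb and Abcc9 were well above background on the young array only, Pdgfrb with no limit and Abcc9 with one of at least 1.17-fold lower, and Ndufa4l2 and Heyl on neither, so that these 4 markers could not be placed. The part of vascular smooth muscle and pericytes in the differences of the contractile genes was not tested.

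Most markers of fibroblasts were also low on the aged array. Of 10, 4 of the 8 measured on both arrays were at least 2-fold lower, Fn1 at -2.12, Col1a1 at -1.81, Col3a1 at -1.73 and Col1a2 at -1.44, and 2 more, Pdgfra and Postn, were lower by their limit. Col1a1 came to -0.78 under normexp. Thy1, at 0.34, and Mfap5, at 0.46, were higher, as they were under every scaling run. Their median was -1.21 and their summed level was 23.9 at 9 weeks and 10.5 at 24 months. Leukocyte markers had a median of -0.99 over 6 genes and a summed level of 135 and 55.2, with Lyz2 at -1.91, Laptm5 at -1.40 and Adgre1 at -1.36. Endothelial markers had a median of -0.52, with none of 7 at 2-fold, and a summed level of 8.54 and 6.20. The part of fibroblasts, leukocytes and endothelial cells in the differences of the contractile genes was not tested.

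Skeletal muscle lies near the gland and shares part of the machinery. Of its 14 genes, 6 were measured on both arrays, with a median of 0.13 and none at 2-fold, and 4 were not well above background on either. The skeletal actin Acta1 was at least 3.72-fold lower and Tnni2, a troponin, at least 4.11-fold lower by their limits, and Myog at least 6.73-fold higher. The secretory lists had medians of 0.16 (acinar, 8 genes) and -0.34 (granular duct, 7 genes), with Smgc, a secreted protein of the gland, at -1.79 as the only gene at 2-fold. Under the other scalings the acinar median lay between -0.52 and 0.34, so that its sign turned, and the granular duct median between -0.82 and -0.16.

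**Figure D5:**
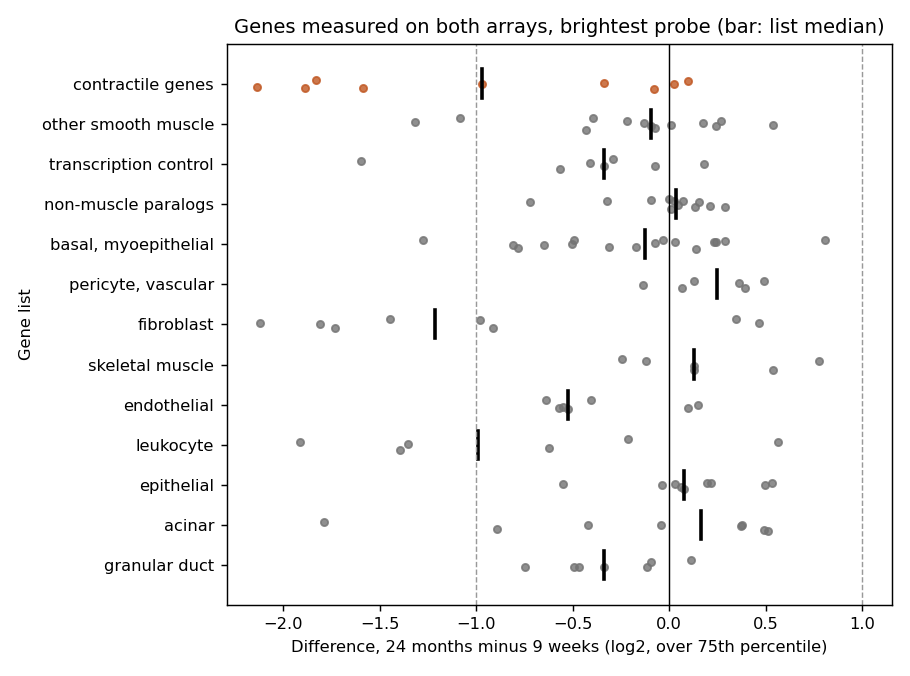
Difference between the arrays (log2, aged minus young, brightest probe) of the genes measured on both arrays in the 10 contractile genes (orange) and 12 other lists (grey), with the list median as a black bar and dashed lines at 2-fold. The contractile genes have a median of -0.97, the fibroblast list -1.21, the basal list -0.12 and the pericyte list 0.25.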

How the data were processed

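RNA of 1 young and 1 aged sample of sorted epithelial cells was measured on Agilent 8x60K mouse arrays with the dye Cy3, both on 1 slide. The deposited scanner files, made with Agilent Feature Extraction 12.0.3.1 per the file headers, hold the intensity of each spot after background subtraction, unscaled between arrays. The authors' deposited value table holds the same intensity divided by 1 constant per array, and served as an alternative.

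Signals were divided by the 75th percentile of their array's non-control spots (256 young, 198 aged) and taken to log2. Spots marked as outliers were left out, and spots of a probe averaged. A probe was kept if either array had it well above background. Where only 1 array was above background, the limit set that value against the higher of the dim probe's own value and the lowest signal above background (14.1 young, 14.3 aged), and the brightest kept probe stood for a gene. Of 59305 non-control spots, 55.4% (young) and 50.8% (aged) were well above background. The number of arrays limits the precision.

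Some genes, 1 list and 1 probe sequence are not reported here. The members and lists were chosen with earlier results of these data known. All members were named, with genes of other lists at 2-fold and a few defining ones. Alternatives were 6 other scalings, other filters and other choices of probe. Calculations used R 4.3.3, limma 3.58.1 and Python 3.11.15, and were tested on simulated data. Gene names were those in the files, updated through the RefSeq accession for the 33767 of 56605 probes that matched.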

Additional observations from a re-analysis of the deposited data

How the results depend on the processing

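The median difference of the 9 measured members was -0.97 and moved to -1.23 with the arrays set level on spike-in controls, to -0.49 under the normexp background correction and to -0.65 with no filter on dim probes, where Lmod1 enters as an unmeasured value. The number of members at least 2-fold lower was 4, between 3 and 5 under the other scalings, background correction and filters, 5 by any kept probe (an alternative chosen after seeing the data), and 7 when each kept probe was counted, since Acta2 and Myh11 then count more than once. The number at least 2-fold higher was 0 under every alternative run. The fifth member, with the percentile over measured probes and with spike-in controls, was Mylk. Under normexp, Myh11 stood at -0.49, and the limit of the Acta2 probe at base 1641 at -0.61. Of 150 values of single probes under an alternative, 133 moved by less than the software's error and 17 by more. All 17 were under loess, spike-in controls or normexp. Part of the 133 could hardly move, so that their number does not measure stability. No member spot was marked as an outlier, so keeping outliers changed nothing. Raising dim values to the lowest signal above background repeated the limits, and the deposited table differs by 1 constant per array. Other scalings moved the median of all genes by -0.26 (spike-in controls) to 0.17 (median centring). Among genes at 2-fold, 33.2% were higher with the main scaling, 52.7% with median centring, 23.5% with the percentile over measured probes and 13.8% with spike-in controls. No paired analysis was possible because each age had 1 array. Dim probes, Oxtr, Myh11 and Mylk among them, are limited by signal over background.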
